A study of Mus musculus with 8 samples.

Results

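The HoxA cluster genes were measured in back skin epidermis of newborn mice (P0) whose epidermal cells had lost EED, and in control epidermis. The members were taken by accession: every non-control probe of the array whose RefSeq accession names a gene from Hoxa2 to Hoxa13. Such probes, 12 in all, named 10 genes, of 36799 genes and other targets on the array. The genes are Hoxa2, Hoxa3, Hoxa4, Hoxa5, Hoxa6, Hoxa7, Hoxa9, Hoxa10, Hoxa11 and Hoxa13, with 2 probes each for Hoxa9 and Hoxa13 and 1 probe each for the others. Of the 10 genes, 9 passed the filter on dim probes and were tested. Hoxa13 did not pass, and is given by its values alone.

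The series held 8 two-color arrays, 4 of EED cKO (K14-Cre; EED flox/flox) and 4 of control P0 mice, all labeled as C57BL/6. K14-Cre is active in keratinocytes of the epidermis and its appendages, so other cells that come off with the epidermis, such as melanocytes, nerve or blood cells, kept Eed. The labels give the control only as CTL. Each array measured RNA of 1 sample (100 ng of total RNA, described as a biological replicate) against Universal Mouse Reference RNA, a commercial mix that was the same throughout. The sample was in Cy3 on replicates 1 and 3 and in Cy5 on replicates 2 and 4 of both genotypes. All 8 arrays were on 1 slide with 1 scan, EED cKO in row 1 and control in row 2, so genotype and slide row cannot be told apart.

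Hox genes encode homeodomain transcription factors that give cells their position along the body axis. Their order along the chromosome follows the order in which they are used from head to tail: genes with low numbers have anterior borders, and genes with high numbers are used toward the tail, the limbs and the urogenital tract. PRC2 is the complex that methylates histone H3 at lysine 27, EED is the subunit that binds this mark, and Hox clusters are among the best known targets of PRC2. The complex is found at regions rich in CpG. Adult skin keeps Hox codes that differ between body sites, in dermal fibroblasts as well as in the epidermis.

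To show where these genes start, RefSeq promoters (GRCm38.p6, mouse chromosome 6, minus strand; 250 bases before to 50 after the start, 5′ to 3′) are printed for the members whose values the results turn on: Hoxa2 and Hoxa3, which fell most, Hoxa7, which differed most among controls, and Hoxa10, which rose most and has 2 annotated starts. CpG dinucleotides are in capitals. The windows are chr6:52164782-52165081 for Hoxa2, chr6:52213018-52213317 for Hoxa3, chr6:52218524-52218823 for Hoxa7, and chr6:52234890-52235189 and chr6:52240805-52241104 for Hoxa10. The Hoxa3 window lies between those of Hoxa6 and Hoxa7, out of the order of the cluster. Its CpG count is that of this annotated start and of no start nearer to Hoxa2.
Hoxa2: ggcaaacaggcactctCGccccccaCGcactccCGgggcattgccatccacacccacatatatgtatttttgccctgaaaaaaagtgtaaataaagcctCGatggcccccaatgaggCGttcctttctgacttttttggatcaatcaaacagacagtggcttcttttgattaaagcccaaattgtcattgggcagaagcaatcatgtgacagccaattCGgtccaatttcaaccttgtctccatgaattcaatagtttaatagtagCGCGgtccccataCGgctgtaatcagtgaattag
Hoxa3: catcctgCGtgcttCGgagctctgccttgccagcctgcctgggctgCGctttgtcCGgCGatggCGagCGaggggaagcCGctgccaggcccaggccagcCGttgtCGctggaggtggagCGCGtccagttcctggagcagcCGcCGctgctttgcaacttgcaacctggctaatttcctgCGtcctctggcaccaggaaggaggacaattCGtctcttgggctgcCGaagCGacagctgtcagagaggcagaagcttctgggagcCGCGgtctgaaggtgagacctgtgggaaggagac
Hoxa7: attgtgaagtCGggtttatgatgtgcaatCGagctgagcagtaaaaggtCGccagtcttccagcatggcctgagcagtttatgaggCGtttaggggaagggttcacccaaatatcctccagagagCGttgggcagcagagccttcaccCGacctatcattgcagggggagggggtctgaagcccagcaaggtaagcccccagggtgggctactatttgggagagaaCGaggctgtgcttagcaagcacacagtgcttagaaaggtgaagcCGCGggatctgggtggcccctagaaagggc
Hoxa10, start nearer to Hoxa9: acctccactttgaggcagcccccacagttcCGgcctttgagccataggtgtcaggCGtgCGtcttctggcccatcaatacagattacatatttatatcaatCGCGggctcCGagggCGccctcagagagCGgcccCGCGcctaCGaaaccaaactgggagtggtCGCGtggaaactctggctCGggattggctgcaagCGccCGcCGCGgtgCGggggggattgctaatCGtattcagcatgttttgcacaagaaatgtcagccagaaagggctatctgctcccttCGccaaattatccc
Hoxa10, start nearer to Hoxa11: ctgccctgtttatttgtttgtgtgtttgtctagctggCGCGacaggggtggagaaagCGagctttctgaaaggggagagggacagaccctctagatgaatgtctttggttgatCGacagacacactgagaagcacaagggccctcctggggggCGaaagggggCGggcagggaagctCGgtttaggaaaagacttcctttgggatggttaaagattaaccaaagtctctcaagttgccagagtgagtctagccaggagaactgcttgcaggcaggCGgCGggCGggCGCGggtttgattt
These windows held 9, 20, 9, 21 and 12 CpG. Over 32851 promoters of this length the median was 7, and the 10 windows of the 9 members with an entry ranged from 4 in Hoxa9 to 45 in Hoxa13. Of the called members with an entry, Hoxa2 (9), Hoxa3 (20) and Hoxa5 (29) fell, and Hoxa9 (4), Hoxa10 (21 and 12) and Hoxa11 (15) rose. The homeodomain core TAAT or its reverse complement ATTA, counted on both strands with overlaps, was in 8 of the 10 windows and in 58.0% of all promoters. The TATA box TATAAA or its reverse complement TTTATA was in 1 of the 10, that of Hoxa10 nearer to Hoxa9, against 13.6% of all. A match of letters is a description of the window and does not mark a bound site.

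The deletion was first checked by Eed itself. Its log2 ratio (sample over reference RNA) was -1.74, -2.04, -1.78 and -1.66 in EED cKO replicates 1 to 4, and -0.18, -0.46, -0.31 and -0.43 in control replicates 1 to 4. Eed was 2.75-fold lower in EED cKO (log2 difference -1.46 ± 0.09 SE, n = 4 arrays each, limma adjusted p = 2.1e-05). In bulk epidermis, fewer expressing cells and less RNA per cell cannot be told apart, for Eed and for every gene that follows. The keratinocyte identity of the samples was checked by 8 markers, all well above background on every array. Their mean log2 ratio lay between 3.78 and 4.24 in EED cKO and between 3.67 and 4.32 in control, and 7 of the 8 did not pass the test, with Trp63 lower (-0.59).

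Along the cluster, the low-numbered HoxA genes were lower in EED cKO and the high-numbered ones higher. Hoxa2, Hoxa3, Hoxa4 and Hoxa5 fell, Hoxa9, Hoxa10 and Hoxa11 rose, and Hoxa6 and Hoxa7 between them did not pass the test. In counts, 4 of the 9 tested members were lower at an adjusted p below 0.05, against 9.92% of all 23203 tested genes and targets, and 3 of 9 were higher, against 11.8%. Of the 9, Hoxa6, Hoxa10 and Hoxa11 passed the filter through EED cKO alone and 0 through control alone, so the count of rises leans on genes that had to be high in EED cKO to be tested. With at least a 2-fold difference, 2 members were lower (Hoxa2 and Hoxa3; 0.108% of all tested) and 1 was higher (Hoxa10; 1.11%). The groups did not overlap in 5 members. Every EED cKO array was below every control array for Hoxa2, Hoxa3 and Hoxa4 (7.48% of all tested) and above for Hoxa9 and Hoxa10 (9.69%). The median log2 difference was 0.04 over the 9 members and 0.02 over all tested, since rises and falls offset each other.

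The count of 4 lower members was not stable. It dropped to 2, Hoxa2 and Hoxa3, without EED cKO replicate 1, without EED cKO replicate 4 or without control replicate 2. The mean of 4 Y-linked genes was 1.19 and 1.02 on control replicates 2 and 3. It lay between -1.51 and -1.31 on the other 6 arrays. All 4 EED cKO arrays were among these 6, so the Y-linked level was not balanced between the genotypes. The count of lower members was also 2 with the Y-linked mean as a covariate. The calls of Hoxa2, Hoxa3 and Hoxa10 held in all 25 alternatives tried.

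**Figure D1:**
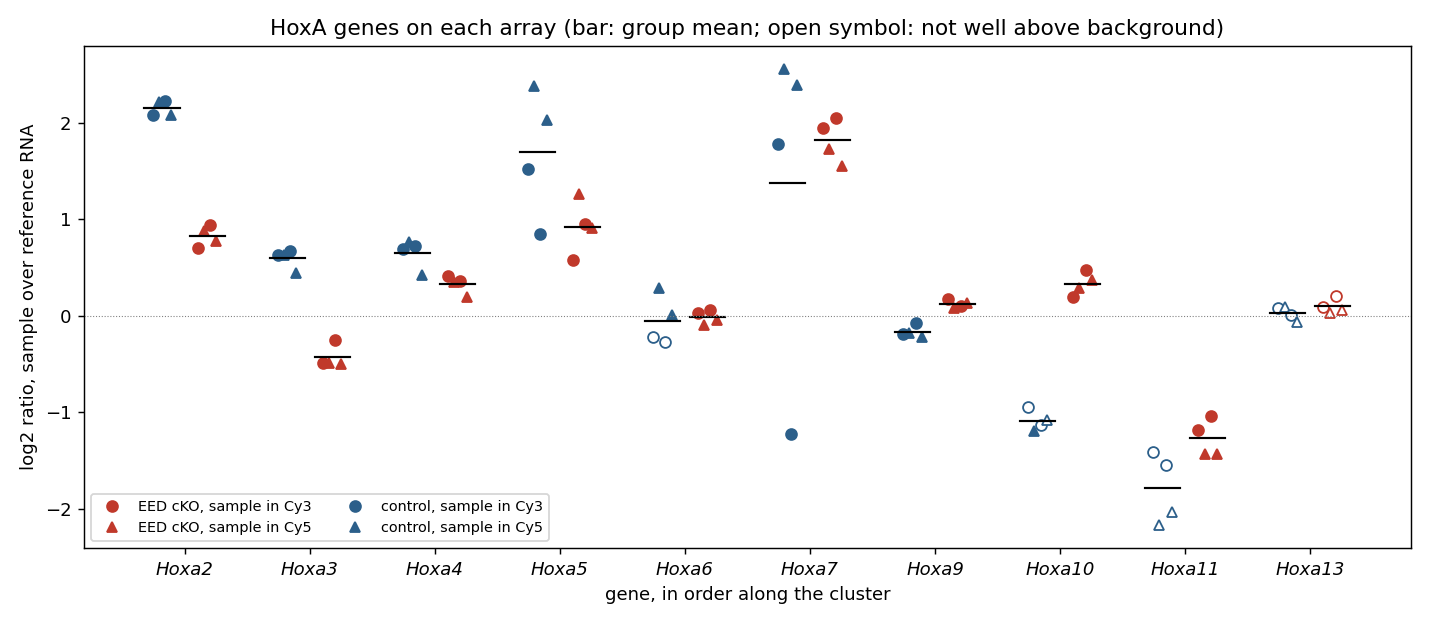
The log2 ratio of sample over reference RNA (y axis) is plotted for the 10 HoxA genes in order along the cluster (x axis), with 1 point per array, control at left and EED cKO at right of each gene, circles for Cy3 and triangles for Cy5, bars for group means and open symbols where the sample was not well above background. Control lies above EED cKO for Hoxa2 to Hoxa4 and below it for Hoxa9 and Hoxa10, and control replicate 3 of Hoxa7 sits at -1.22 while the other 3 controls lie between 1.78 and 2.56.

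Hoxa2 sets the anterior border of the cluster in the hindbrain and patterns the second branchial arch. Its log2 ratio was 0.70, 0.87, 0.94 and 0.77 in EED cKO replicates 1 to 4 and 2.08, 2.21, 2.23 and 2.07 in control replicates 1 to 4. All 4 controls were more than 1 log2 unit above the highest EED cKO array, a gap of 1.13. Hoxa2 was 2.51-fold lower in EED cKO (log2 difference -1.33 ± 0.08 SE, limma adjusted p = 1.9e-05). It remained well above background on all 8 arrays, with a sample brightness of 91 to 123 in EED cKO and 234 to 394.5 in control before background correction.

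Hoxa3, needed for the thymus and parathyroid glands, was on the reference side of the ratio in EED cKO and on the sample side in control. Its values were -0.49, -0.49, -0.25 and -0.50 in EED cKO and 0.63, 0.63, 0.67 and 0.44 in control. The groups were 0.70 apart at their nearest points. Hoxa3 was 2.04-fold lower (log2 difference -1.03 ± 0.08 SE, limma adjusted p = 7.9e-05).

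Hoxa4, an axial patterning gene of the cervical region, showed the smallest fall. Its values were 0.42, 0.35, 0.36 and 0.19 in EED cKO and 0.69, 0.76, 0.72 and 0.42 in control. The groups touched, with 0.0046 between EED cKO replicate 1 and control replicate 4. Hoxa4 was 1.25-fold lower (log2 difference -0.32 ± 0.09 SE, limma adjusted p = 0.029), and this call was lost in 9 of 25 alternatives, among them median centring (adjusted p = 0.15) and the fit without the dye (adjusted p = 0.069).

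Hoxa5, which patterns the cervicothoracic skeleton and the lung, fell with overlap. Its values were 0.57, 1.26, 0.95 and 0.91 in EED cKO and 1.51, 2.38, 0.85 and 2.03 in control. Control replicate 3 lay inside the EED cKO range, and the other 3 controls lay above it. Hoxa5 was 1.70-fold lower (log2 difference -0.77 ± 0.20 SE, limma adjusted p = 0.022). By exact permutation of the 8 arrays, which takes no account of the dye, the two-sided p was 0.114, and the smallest p that 4 against 4 can give is 0.0286. The limma call was lost in 7 of 25 alternatives, and without control replicate 3 the difference was -0.97 (limma adjusted p = 0.0032).

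Hoxa6, a thoracic member, was close to background and near the level of the reference. Its sample was well above background on 4 of 4 EED cKO and 2 of 4 control arrays. The values were 0.03, -0.10, 0.06 and -0.04 in EED cKO and -0.22, 0.29, -0.27 and 0.00 in control. The control values spread on both sides of the EED cKO values, and the log2 difference was 0.04 ± 0.11 SE (limma adjusted p = 0.84). In 6 of 25 alternatives it took the opposite sign.

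Hoxa7, active in the thoracic region and known in keratinocytes, was the member with the brightest sample signal on its probe. Its values were 1.94, 1.73, 2.04 and 1.55 in EED cKO and 1.78, 2.56, -1.22 and 2.39 in control. The EED cKO arrays lay close together (SD 0.22, n = 4) and the controls did not (SD 1.76, n = 4), against a median SD over all tested genes of 0.14 in EED cKO and 0.16 in control. The log2 difference was 0.44 ± 0.64 SE (limma adjusted p = 0.67). Without control replicate 3 it turned to -0.41 ± 0.19 SE (limma adjusted p = 0.16), so neither direction passed the test.

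The low value on control replicate 3 came from the sample channel. The Hoxa7 spot had a brightness of 192 there against 1424.5, 7153 and 5516.5 on control replicates 1, 2 and 4, while the reference in the other channel was 918 against 940.5, 1355 and 1304. Relative to the other 3 controls, Hoxa7 was 11.02-fold lower on this array (log2 difference -3.46), the lowest of the 23202 genes and targets that could be ranked. Hoxa5 was 2.19-fold lower (-1.13), the 24th lowest. Control replicate 3 was in Cy3 and replicates 2 and 4 were in Cy5, and this comparison took no account of the dye. On control replicate 1, also in Cy3, Hoxa7 was 1.78 and Hoxa5 1.51, against -1.22 and 0.85 on control replicate 3. The members at both ends were not low on it: Hoxa2, Hoxa3, Hoxa4 and Hoxa9 differed from the other controls by between 0.09 and 0.12, Hoxa10 by -0.06 and Hoxa11 by 0.33.

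Other clusters were searched for the same array after these values were seen. Hoxb7 (-1.53, the 8th lowest), Hoxd8 (-1.23, the 17th), Hoxb6 (-1.20, the 20th), Hoxb8 (-1.01, the 27th) and Hoxb9 (-0.94, the 41st) were also low on control replicate 3. On control replicates 3 and 1, both in Cy3, the log2 ratios were -0.56 and 0.46 for Hoxb7 and -1.57 and -0.86 for Hoxd8. They were -0.79 and 0.32 for Hoxb6, -0.41 and 0.64 for Hoxb8, and -1.79 and -0.88 for Hoxb9. No rank or count in this comparison took account of the dye. Counting Hoxa7 and Hoxa5, 5 of the 32 tested Hox genes were among the 25 lowest there (the limit of 25 was set after the values were seen), and 0 of 32 on each of the other 7 arrays, each set against the other arrays of its genotype. On the high side, control replicate 2 had Hoxa7 (1.57, the 12th highest) and Hoxd8 (1.35, the 20th) and control replicate 4 had Hoxa7 (1.35, the 15th) among the 25 highest. For Hoxd8 the value of control replicate 2 (0.37, against -0.86 and -0.53 on replicates 1 and 4) raised the mean that control replicate 3 was compared with. On control replicate 3, 28 genes and targets were at least 2-fold lower than on the other controls. The same count was 113, 17 and 29 on control replicates 1, 2 and 4. Control replicate 2, high in Y-linked genes like control replicate 3, had the highest Hoxa7 of all. The cause of the low values on control replicate 3 was not tested.

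**Figure D2:**
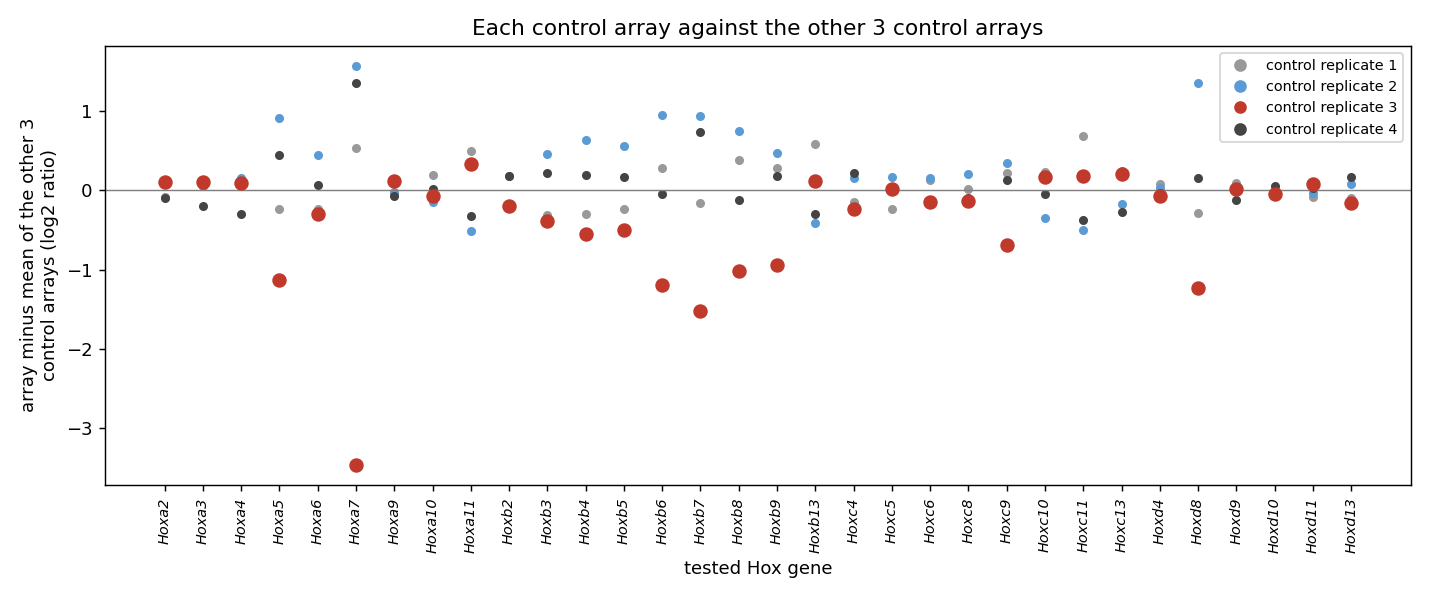
For each of the 32 tested Hox genes (x axis, clusters A to D), the log2 ratio on each control array minus the mean of the other 3 control arrays is shown (y axis), with control replicate 3 in red. The dye was not taken into account. Red points fall to -3.46 for Hoxa7 and to between -1.53 and -0.94 for Hoxb6 to Hoxb9 and Hoxd8, and stay near 0 for Hoxa2 to Hoxa4 and Hoxa9 to Hoxa10.

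Hoxa9, a posterior gene best known in the lumbosacral axis and in blood cell progenitors, rose by little but evenly on both of its probes. On the brighter probe its values were 0.18, 0.09, 0.11 and 0.13 in EED cKO and -0.19, -0.18, -0.08 and -0.22 in control. On the other probe they were 0.30, 0.49, 0.32 and 0.37 in EED cKO and -0.03, 0.04, -0.04 and -0.01 in control. The groups did not overlap on either probe, and all 8 arrays were well above background on both. Hoxa9 was 1.22-fold higher by the brighter probe (log2 difference 0.29 ± 0.06 SE, limma adjusted p = 0.013) and higher by 0.38 ± 0.06 SE by the other (limma adjusted p = 0.0042, every probe tested on its own). The brighter probe lost its call under median centring (0.18, adjusted p = 0.19). Over the 25 alternatives the log2 difference of Hoxa9 ranged from 0.18 to 0.60.

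Hoxa10, needed for the lumbar axis and the uterus, rose most. Its values were 0.20, 0.28, 0.48 and 0.37 in EED cKO and -0.94, -1.20, -1.14 and -1.08 in control. The nearest points of the groups were 1.14 apart. Hoxa10 was 2.67-fold higher in EED cKO (log2 difference 1.42 ± 0.09 SE, limma adjusted p = 1.9e-05). The sample was well above background on 4 of 4 EED cKO arrays and on 1 of 4 control arrays, with a brightness of 85.5 to 127 against 30 to 44, so the control level was near the lowest that the arrays resolve. The fold depended on how that background was treated: the log ratio of Feature Extraction, which subtracts the background without an offset, gave a log2 difference of 4.28.

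Hoxa11, a gene of the limb and urogenital tract, had 10 spots per array, so spread between spots could be read beside that between arrays. Its values were -1.18, -1.43, -1.03 and -1.43 in EED cKO and -1.41, -2.17, -1.54 and -2.03 in control, means over the 7 to 10 spots left after outlier flags. Over arrays the groups overlapped by 0.02, between control replicate 1 in Cy3 and EED cKO replicates 2 and 4 in Cy5. Within each dye they did not overlap: EED cKO was higher in Cy3 and higher in Cy5. Between the spots of 1 array the SD was 0.08 to 0.16. Between arrays it was 0.20 in EED cKO and 0.37 in control, but these SDs include the difference between the dyes. Arrays of the same dye lay closer in EED cKO (-1.18 and -1.03 in Cy3, -1.43 and -1.43 in Cy5). The same held in control (-1.41 and -1.54 in Cy3, -2.17 and -2.03 in Cy5). Each array value is a mean over 7 to 10 spots, so the SD of single spots does not give the spread expected of these means. Whether arrays of the same dye differed beyond their spots was not tested.

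By limma, with the dye in the fit, Hoxa11 was higher by 0.52 ± 0.09 SE (adjusted p = 0.0037). The control was well above background on 0 of 4 arrays and EED cKO on 4 of 4, so control has only a bound. The bound from the sample channel, after normalization between arrays, was 1.36-fold (mean log2 signal 6.70 in EED cKO against 6.26 in control). The measured control values stood in the bound, so it equals the measured difference and carries no margin for error. Sample brightness before background correction overlapped, at 36.8 to 69.1 in EED cKO and 26.3 to 54.55 in control. The call was lost without the dye term (adjusted p = 0.087), and the exact permutation test of the 8 arrays, which ignores the dye, gave a two-sided p of 0.0857.

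**Figure D3:**
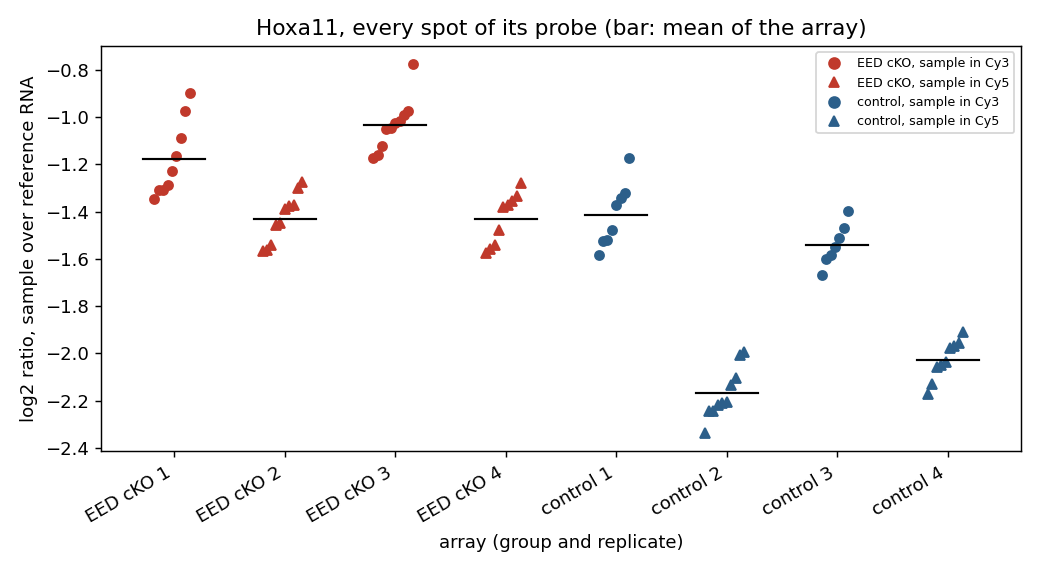
Sample over reference on the log2 scale (y axis) is plotted for every spot of the Hoxa11 probe without an outlier flag on each array (x axis), circles for Cy3, triangles for Cy5 and bars for the array mean. Spots of 1 array spread by an SD of 0.08 to 0.16, EED cKO is above control within each dye, and Cy5 arrays lie below Cy3 arrays of the same genotype.

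Hoxa13, the last gene of the cluster, with roles in the digits and the hindgut, was not well above background on any array by its brighter probe. The other probe passed on EED cKO replicate 2 and control replicate 2 only. The reference RNA was above background for neither probe on any array. Its log2 ratios, 0.03 to 0.21 in EED cKO and -0.06 to 0.09 in control, therefore give no level for either genotype, and a Hoxa13 transcript was not detectable at this signal over background.

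The sizes were set beside those of all called genes. The median called rise over all genes was 0.44 and the median called fall was -0.42. Hoxa2, Hoxa3 and Hoxa5 exceeded the latter and Hoxa10 the former, while Hoxa4 and Hoxa9 changed by less than the typical call in this fit. Both are dim, and over the 25 alternatives Hoxa4 ranged from -0.56 to -0.23 and Hoxa9 from 0.18 to 0.60. Hoxa11, with only a bound in control, was not ranked.

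**Figure D4:**
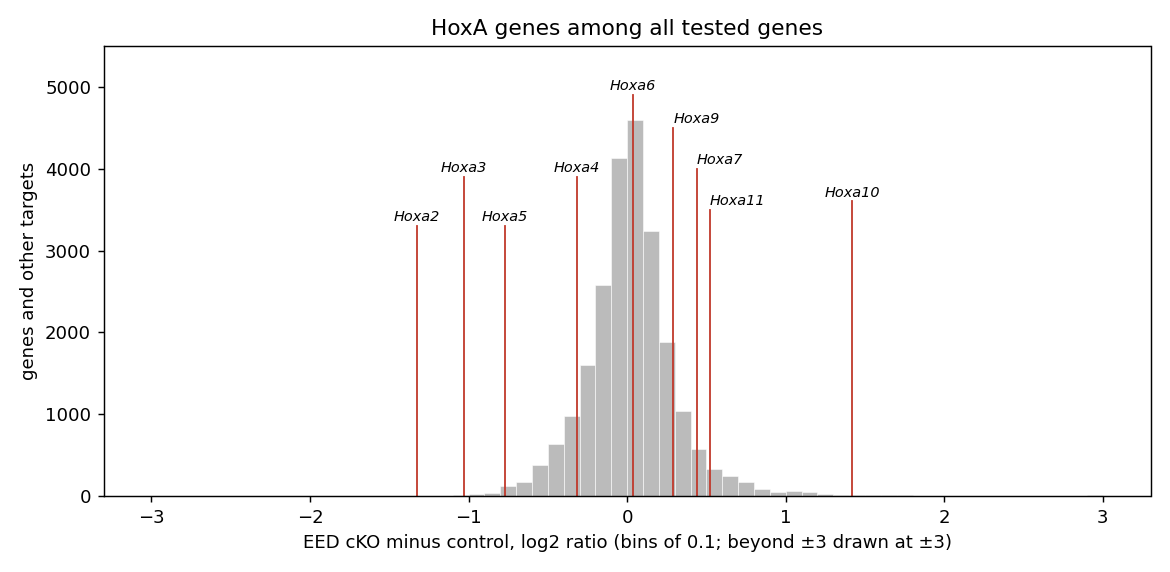
The histogram shows the log2 difference of EED cKO minus control (x axis, bins of 0.1) for all 23203 tested genes and targets, with their number on the y axis, and red lines mark the 9 tested HoxA genes. Hoxa2 at -1.33 and Hoxa3 at -1.03 lie in the left tail, Hoxa10 at 1.42 in the right tail, and Hoxa6 at 0.04 near the peak.

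The reference RNA was the same on all arrays, so its channel was compared between the rows as well. It does not measure what the row gives in the sample channel, and genotype and row still cannot be told apart. Between the rows, after Aquantile normalization, the reference signal of the 9 tested members differed by between -0.10 (Hoxa4) and 0.09 (Hoxa9) on the log2 scale, and 0 of 9 passed the limma test at an adjusted p below 0.05, against 0.504% of all tested (117). Hoxa2 differed by 0.03 and Hoxa10 by -0.08 in that channel.

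A noncoding transcript of the locus changed in the direction of its neighbour. Hoxa11os, from the strand opposite Hoxa11, was 1.78-fold higher (0.83 ± 0.07 SE, limma adjusted p = 1e-04), with -1.02 to -0.69 in EED cKO and -1.80 to -1.53 in control. Unlike Hoxa11, it was well above background on all 8 arrays, and its groups did not overlap.

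Outside the cluster, calls were near the share of all genes. Of 8 tested genes that flank HoxA, Cbx3, a heterochromatin protein gene, was lower (-0.46, limma adjusted p = 0.010), Snx10, a sorting nexin gene, was higher (0.42, limma adjusted p = 0.012), and 6 did not pass, where 9.92% of all tested were lower and 11.8% higher. Neither Cbx3 nor Snx10 differed without overlap between the groups, and 0 of 8 reached a 2-fold difference.

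The paralogues of the other clusters showed how far the pattern went with gene number. Over all tested, 9.92% were lower and 11.8% higher. The limits of the 3 number ranges used here fall where the HoxA calls change. For numbers 1 to 5, 4 of 4 tested HoxA members and 6 of 7 tested HoxB, HoxC and HoxD genes were lower. Hoxd4 was the exception (higher by 0.71, named after its value was seen). Hoxd4 entered the test through EED cKO alone, with control well above background on 2 arrays. For numbers 6 to 8, 0 of 2 in HoxA passed, and in the other clusters 1 was higher, 1 lower and 4 not called. For numbers 9 to 13, 3 of 3 in HoxA and 8 of 10 elsewhere were higher, with 0 lower. Of these 11 rises, 2 in HoxA (Hoxa10 and Hoxa11) and 5 elsewhere were of genes that entered the test through EED cKO alone, because control was well above background on fewer than 3 arrays, so they could hardly have entered as falls. Their number is a description of what passed the filter.

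Within each cluster, the largest fall and rise were Hoxb2 (-1.29) and Hoxb13 (4.10) in HoxB, and Hoxc4 (-1.21) and Hoxc9 (2.24) in HoxC. In HoxD the largest rise was Hoxd8 (2.20); 6 of 6 tested genes were higher, but 5 of them entered the test through EED cKO alone, which largely sets that direction. The rise of Hoxa9 (0.29) stood beside larger rises of other genes at the posterior end. No difference between clusters was tested, since each gene was read by a probe of its own.

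**Figure D5:**
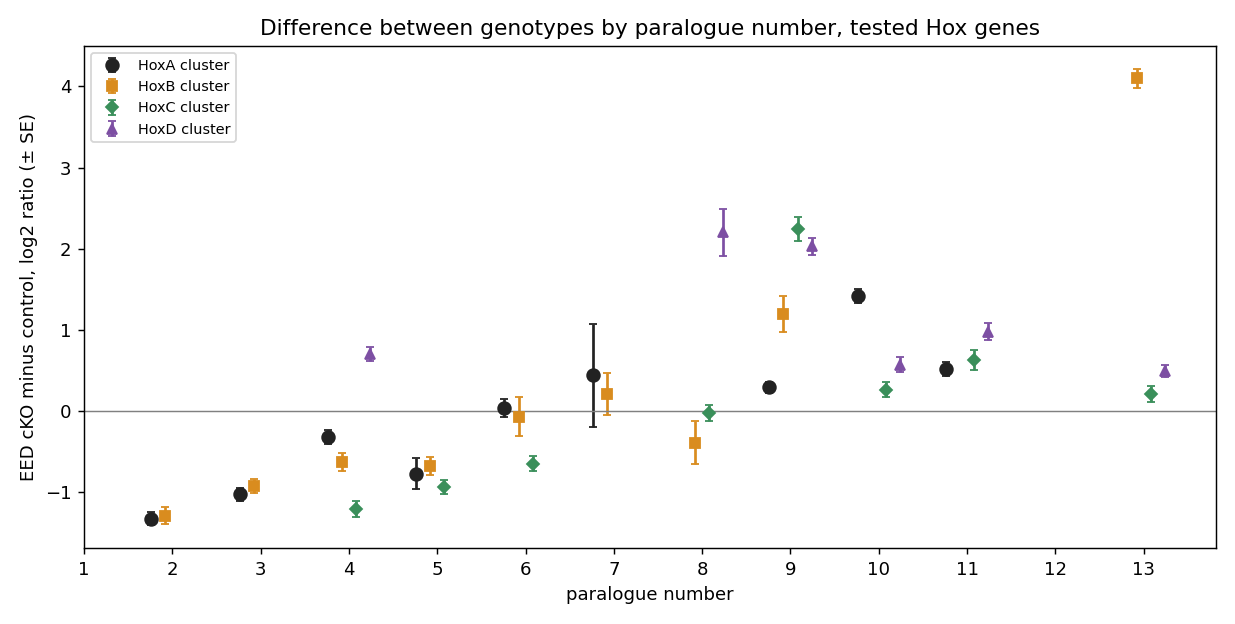
The difference between genotypes (EED cKO minus control, log2 ratio, bars ± SE, y axis) is plotted against paralogue number (x axis) for the tested genes of the HoxA, HoxB, HoxC and HoxD clusters. HoxA runs from -1.33 at number 2 to 1.42 at number 10 and is lower again, 0.52, at number 11. Its widest error bar is at Hoxa7 (0.64), and Hoxb13 is the highest point of all at 4.10.

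The genes whose log2 ratios over the 8 arrays, each gene's mean subtracted, lay nearest to Hoxa2 were Hoxb2 (root mean square difference 0.15), Slc43a1 (0.16) and Hoxa3 (0.17). Hoxb2 and Slc43a1, an amino acid transporter gene, were lower by 1.29 and 1.14 on the log2 scale. Nearest to Hoxa10 were Tbx15 (0.10), Il20ra (0.10) and Cenpv (0.12), which rose by 1.40, 1.44 and 1.56. Tbx15 is a T-box gene of dorsal skin patterning and Il20ra a receptor chain for cytokines of the interleukin-20 family. The measure includes the difference between the genotypes, which all of these genes share in direction with the member they are near to.

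Hox proteins bind DNA with TALE cofactors. Of the cofactor genes reported here, Meis1 (0.58, limma adjusted p = 0.041) and Meis3 (0.28, limma adjusted p = 0.021) were higher, Pbx3 was lower (-0.36, limma adjusted p = 0.021), and 5 did not pass. Among 10 tested regulators of Hox clusters outside PRC2, 6 were lower: the H3K27 demethylase gene Kdm6b (-0.31), the trithorax group genes Kmt2b (-0.25) and Wdr5 (-0.25), the insulator protein gene Ctcf (-0.39), and the retinoic acid receptor genes Rara (-0.52) and Rarg (-0.45). Cyp26b1, which encodes an enzyme that breaks down retinoic acid, was higher, with 1.24 to 2.48 in EED cKO and -0.10 to 1.18 in control (log2 difference 1.41 ± 0.23 SE, limma adjusted p = 0.0037). Of 11 tested PRC2 subunits, 5 were lower, Eed among them, and 6 did not pass. Over all tested, 9.92% were lower and 11.8% higher.

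Markers of other cells were read in the same fit. All 8 Merkel cell markers were higher, 3 of them at least 2-fold (Krt20, Cck and Tubb3), and their mean log2 ratio was -0.29 to 0.01 in EED cKO against -1.18 to -0.93 in control. Of 3 tested endothelial markers 2 were higher, and of 6 immune markers 2 were higher, with 2 and 0 genes of the respective lists above background on no array. Of 11 tested dermal fibroblast markers 2 were higher and 1 lower, and the mean of the list was -2.61 to -2.46 in EED cKO and -2.67 to -2.36 in control. Of 3 tested Schwann cell and neuron markers 1 was lower, and 0 of 6 melanocyte and 0 of 4 skeletal muscle markers passed the test. The part of these cells in the HoxA differences was not tested.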

How the data were processed

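RNA of 4 EED cKO and 4 control epidermis samples was hybridized with reference RNA, and groups and dyes follow the sample labels. The authors deposited Agilent Feature Extraction 12.0.1.1 output (per the submitters' notes) with the median spot intensity of each channel and no normalization, a 0 or 1 score that flags spots well above background, and the software's own log10 ratio (red over green), background-subtracted and dye-normalized. A deposited table of log2 ratios matched the processed signals of the same arrays for probes with 1 spot. Control spots and outlier flags were left out. Here intensities were corrected by normexp (offset 50), normalized by loess within arrays and turned to sample over reference on the log2 scale. The offset draws ratios of dim probes toward 0.

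Probes were named through RefSeq accessions (28026 of 29796 matched). Coordinates are those of the RefSeq promoters, because the array annotation uses an earlier genome build. The probe with the highest mean sample signal stood for a gene, and a gene was tested if its sample channel was well above background on 3 or 4 of the 4 arrays of either genotype (23203 of 36799). The sample signal stood well above background at 51.5% to 65.5% of spots per array, and the number of arrays limits the precision.

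The fit of genotype plus dye used limma 3.58.1 in R 4.3.3, with Benjamini-Hochberg adjustment over all tested. On simulated arrays with 200 of 23203 genes made 3-fold different, 198 and 199 were recovered in 2 simulations. False calls were 1 in each at the 2-fold limit, and 7 and 13 at an adjusted p below 0.05 alone. The called members differed by less, from 1.22-fold (Hoxa9) to 2.67-fold (Hoxa10), so the simulations do not give the recovery at their sizes. Bounds used the sample channel after Aquantile normalization, the mean of the measured group against, on each array of the other, the lowest signal well above background or the dim probe's value, whichever was higher. Deviations from the group means of same-numbered arrays correlated at 0.49, 0.68, 0.33 and 0.36 for replicates 1 to 4. Same-numbered arrays share the dye, and within a dye the values were 0.13 (replicates 1 and 3) and 0.45 (replicates 2 and 4). No correlation of differently numbered arrays is given here, so a pairing of arrays by replicate number was not established. What the number marks is not stated in the labels; it coincides with dye and slide column.

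The members, lists and alternatives were chosen with earlier results of these data known. All members are named with every probe. From other transcripts of the locus, flanking genes, cofactors and regulators the genes called are named (not every one is reported here), from the other clusters the largest rise and fall, for 2 members the 3 nearest genes, and from marker lists (keratinocytes, fibroblasts, muscle, melanocytes, immune, endothelial, Schwann and neuronal, Merkel) the members called with at least a 2-fold change, besides Trp63.

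Alternatives were other background corrections and normalizations (none, the Feature Extraction log ratio, the deposited table, median centring, Aquantile, quantile, the sample channel alone), other filters and treatments of several probes, fits without the dye, with a replicate block, a Y-linked covariate, array weights or an intensity trend, the methods' t-test, and each array left out.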

Additional observations from a re-analysis of the deposited data

Results flagged for a closer look

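Over 20 sets of 4 arrays (10 genes in 2 genotypes), 2 held an array far from the other 3, both for Hoxa3. In EED cKO, replicate 3 (-0.25) lay above the others (-0.50 to -0.49), with a gap of 0.954 of the whole range. In control, replicate 4 (0.44) lay below the others (0.63 to 0.67), with a gap of 0.831 of the range. The limit was Dixon's 95% critical value for 4 samples. Chance passes this limit in about 1 of 20 sets. Both departures were small beside the difference between the genotypes. The wider departure of Hoxa7 on control replicate 3 had a gap of 0.794 of the range, under the limit.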

How the results depend on the processing

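Of 469 values over 37 results, 399 kept their direction and their side of the threshold or, for counts, stayed within 1.5 times. The count of 4 lower HoxA genes was 2 without the dye term, with the Y-linked mean as a covariate and by the methods' t-test after adjustment, and 2 to 4 with an array left out. The count of 2 lower genes with at least a 2-fold difference was 1 with the Y-linked covariate and 1 to 2 with an array left out, and that of 1 higher gene was 2 with the Feature Extraction log ratio and with the deposited log2 table, where Hoxa11 passed 2-fold (2.62 on the log2 scale). With the replicate number as a block, the counts were 4 lower and 3 higher and no call of a member changed. Hoxa6 changed sign with median centring (-0.012, also as a difference of group means) and array weights (-0.0093), and ranged from -0.023 to 0.15 with an array left out, being negative without replicate 1 or 3 of EED cKO or of control. Hoxa7 changed sign with the Y-linked covariate (-0.16), and ranged from -0.41 to 0.78 with an array left out, being negative without control replicate 3. The reference channel of Hoxa3 was -0.068 without Aquantile, against 0.02. The cause of these changes was not tested. Counts over all genes moved more: with the methods' unadjusted t-test and 2-fold limit the members counted as in limma, while 593 genes were higher and 106 lower by at least 2-fold with the Feature Extraction log ratio, against 258 and 25. Over the no-filter and stricter-filter fits no member's call changed. The stricter filter could remove no member, because each tested member was well above background on 4 of 4 EED cKO arrays. Hoxa10, Hoxa11 and Hoxa13 are limited by signal near background in control.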
